A study of Homo sapiens with 6 samples.

Results

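The antioxidant enzymes are 10 genes whose products remove superoxide, peroxides and reactive quinones or supply the thiols that this needs: SOD1, SOD2, CAT, GPX1, GPX4, HMOX1, NQO1, GCLC, GCLM and TXNRD1. Their members here are all probe sets of the array whose platform annotation gives one of these symbols and no other, which are 19 of 54613 probe sets. The cells were U937T:PLZF-RARa, made from the human monocytic leukaemia line U937, which carry the leukaemia fusion PLZF-RARα under a switch held off by tetracycline. The uninduced group is 3 samples kept with tetracycline at 0.1 ug/ml, and the induced group is 3 samples washed and cultured for 48 h without it. The titles give 48 h for the uninduced samples too, but another label describes these as cells not yet induced, so washing and time in culture cannot be told apart from induction here. All 6 carried the same construct and grew in the same medium with puromycin and G418, each sample was hybridised to 1 Affymetrix array, and the labels number the replicates without naming them as separate cultures, so p-values rest on a spread that may be technical. A line without the fusion was not analysed here, so loss of the drug and gain of the fusion cannot be told apart, and in bulk RNA less transcript per cell cannot be told apart from fewer cells that carry it.

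Superoxide, made by the respiratory chain and in myeloid cells also by the NADPH oxidase, is turned into hydrogen peroxide by superoxide dismutases. Catalase and the glutathione peroxidases then reduce peroxides, the latter with glutathione, whose synthesis starts at the glutamate-cysteine ligase made of GCLC and GCLM. NQO1, HMOX1, GCLC, GCLM and TXNRD1 are widely used as target genes of the transcription factor NRF2 (NFE2L2), which binds the antioxidant response element and is held back by KEAP1.

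NQO1 was the only one of the 9 measured genes that rose, by 3.50-fold and 3.54-fold in 2 of its probe sets and 6.20-fold in the last. SOD2 fell 3.29-fold. CAT, GPX4, TXNRD1 and GCLM fell by less, 1.28-fold to 1.45-fold on the probe set that represents each gene. For these falls the share of all measured genes with a larger absolute difference was 41.4% (TXNRD1) to 55.8% (GPX4). SOD1, GPX1 and GCLC did not pass the test. HMOX1 was below the level at which a probe set was tested on all 6 arrays. The directions of the NRF2 target genes therefore differed: NQO1 rose, TXNRD1 fell and GCLC was not called. GCLM fell in its brightest probe set and was not called in its others.

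Values are log2 of the deposited intensity. A probe set entered the test if it exceeded 4 (an intensity of 16) on 3 or more arrays, and "rose", "fell" and "called" mean an adjusted p under 0.05 in limma, a linear model with moderated variance, adjusted over all 20552 tested probe sets. Of the 19 member probe sets 15, from 9 genes, were tested: 3 were called higher, 6 lower and 6 were not called, against 34.6% higher and 27.9% lower (62.5% in either direction) among all tested probe sets. Groups were separate, with no overlap, for 11 of these 15, against 70.2% of all tested probe sets. By gene, with the brightest tested probe set standing for each, 1 was higher and 5 lower of 9, against 35.8% higher and 30.7% lower (66.5% together) of 9836 genes. The members' median difference was -0.35 by gene, and that of all genes 0.02, while the median absolute difference of all genes was 0.42. In this comparison, where most genes changed, a call on its own does not set a member apart.

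The promoters of 3 members are shown: NQO1, which rose, and GCLM and TXNRD1, which fell on the probe set that represents each gene. Those of GCLM and TXNRD1 hold an antioxidant response element core (TGACNNNGC on either strand, in capitals), and that of NQO1 holds none in the bases shown. Each is the 250 bases before the annotated start on the gene's own strand, from RefSeq on GRCh38.p14, at chr16:69726561-69726810 (minus strand) for NQO1, chr1:93909431-93909680 (minus strand) for GCLM and chr12:104215529-104215778 (plus strand) for the more upstream TXNRD1 start.
NQO1: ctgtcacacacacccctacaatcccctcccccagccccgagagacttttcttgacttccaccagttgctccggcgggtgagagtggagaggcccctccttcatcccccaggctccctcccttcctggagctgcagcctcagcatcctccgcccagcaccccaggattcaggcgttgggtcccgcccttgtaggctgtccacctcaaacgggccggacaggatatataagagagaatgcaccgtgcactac
GCLM: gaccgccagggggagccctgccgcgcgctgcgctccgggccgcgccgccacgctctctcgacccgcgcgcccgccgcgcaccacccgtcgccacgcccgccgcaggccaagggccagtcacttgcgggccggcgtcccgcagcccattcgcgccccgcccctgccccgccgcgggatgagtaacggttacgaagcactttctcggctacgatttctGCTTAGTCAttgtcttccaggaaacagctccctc
TXNRD1: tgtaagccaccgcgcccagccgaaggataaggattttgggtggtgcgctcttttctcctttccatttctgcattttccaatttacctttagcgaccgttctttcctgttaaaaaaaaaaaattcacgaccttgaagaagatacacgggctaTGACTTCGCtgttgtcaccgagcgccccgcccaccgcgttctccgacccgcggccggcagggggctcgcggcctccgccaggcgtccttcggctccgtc

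The GCLM match lies 34 to 26 bases before the start, on the opposite strand (GCTTAGTCA as read here), and the TXNRD1 match lies 99 to 91 bases before it (TGACTTCGC). A second TXNRD1 start also has a match, 102 to 94 bases before it. The table holds 14 starts for 8 of the 10 members, and these 3 starts were those with the core, while 10.9% of 35116 promoters of the same length hold it. An AP-1 element (TGANTCA) was in 0 of the 14 (6.57% of all), an E-box (CACGTG) was in that of GPX1 only (6.34% of all), and the half-site of retinoic acid receptors (AGGTCA) was at 2 of the 4 SOD2 starts (12.1% of all). These are letters found in a window of 250 bases, and elements farther away were not searched, so a gene without the core here may hold it elsewhere. The core was also absent here at GCLC and GPX1, which were not called, and at SOD2, CAT and GPX4, which fell. Whether it bears on the changes was not tested.

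The 6 arrays fell into their groups, with r = 0.996 to 0.998 within a group and 0.932 to 0.938 between groups over the tested probe sets. Of 4 tested RARA probe sets, the one with the widest gap went from 1.87 ± 0.10 to 7.58 ± 0.17 on the log2 scale (SD, n = 3 each). This is at least 12.0-fold higher against the filter level. The other tested RARA probe sets are not described here. The GAPDH 3' minus 5' log2 difference, which reflects RNA integrity, was 0.503 ± 0.025 in uninduced and 0.579 ± 0.034 in induced samples (SD, n = 3 each; exact permutation test, two-sided, p = 0.1, its lower limit here). Of 13 myeloid markers with a probe set 12 were above the filter, 3 higher and 9 lower in induced samples, with a summed intensity of 72792 to 82624 in uninduced and 45621 to 46099 in induced samples, and myeloperoxidase (MPO) was dim at 2.69 and 3.12. Markers of other cells were dim in 6 of 7 cases for T and NK cells (all but NCAM1), 4 of 4 for B cells, 3 of 3 for erythroid cells and 6 of 8 for fibroblasts and epithelium. The part of the RNA difference and of the myeloid markers in the results below was not tested.

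**Figure D1:**
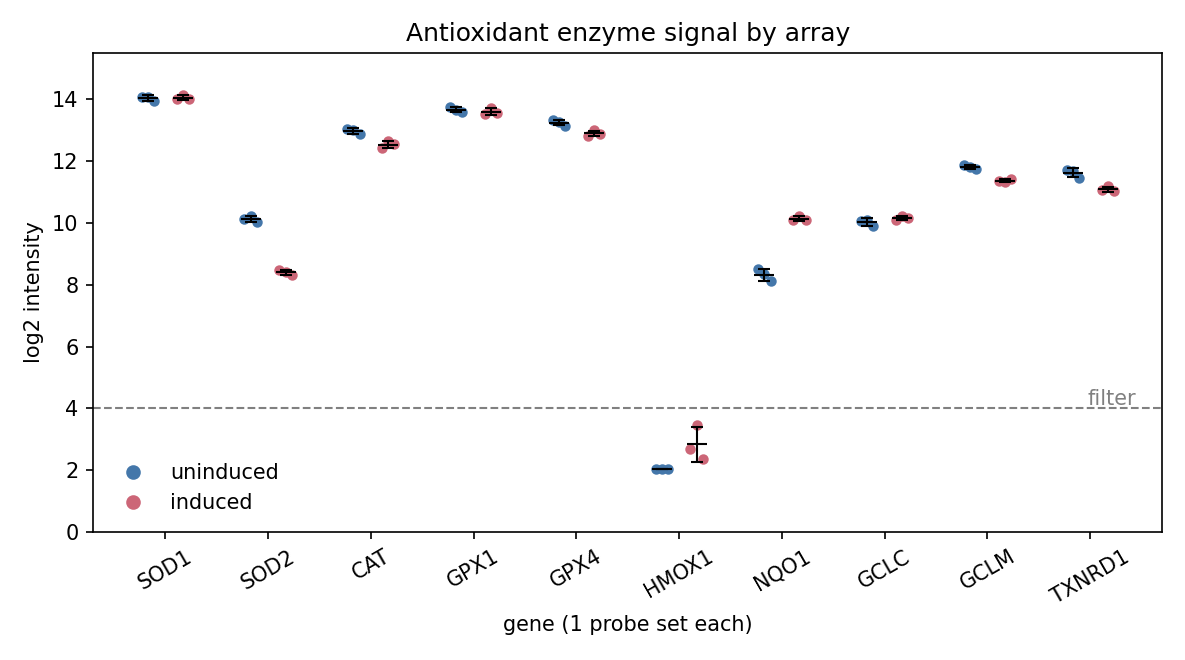
Log2 intensity (y axis) of 1 probe set for each of the 10 genes (x axis) on the 3 uninduced (blue) and 3 induced (red) arrays, with mean and SD as bars and the filter at 4 as a dashed line. SOD2 and NQO1 show the widest gaps between groups, SOD1, GPX1 and GCLC overlap, and all 6 HMOX1 values lie under the filter; heights of different genes cannot be compared, since each has its own probes.

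Of the superoxide dismutases, the mitochondrial manganese enzyme fell and the cytosolic copper-zinc enzyme did not pass the test. SOD2, the mitochondrial enzyme, read 10.12, 10.21 and 10.02 on the uninduced arrays and 8.47, 8.42 and 8.31 on the induced arrays in probe set 1566342_at (log2 intensity). Every induced array was at least 1 unit below every uninduced one. The difference was -1.72 (SE 0.08, 95% interval -1.90 to -1.54; limma, adjusted p = 4.18e-06), a 3.29-fold decrease, and 6.91% of all measured genes had a larger absolute difference. This is the single probe set that names only SOD2, and 4 others that list it with a second gene were left out by the rule. SOD1, the cytosolic enzyme, read 14.09, 14.09 and 13.94 without and 14.02, 14.14 and 14.01 with induction (log2 intensity). The groups overlapped, and the difference was 0.02 (95% interval -0.16 to 0.20; limma, adjusted p = 0.832), so these arrays leave room for a change of up to about 0.2 either way. Its sign was the opposite in 5 of 15 alternative settings. The other measured genes of the dismutase list were the copper chaperone of SOD1, CCS, which rose 1.51-fold (from 8.15 ± 0.14 to 8.75 ± 0.10, SD, n = 3 each; limma, adjusted p = 0.0012), and 1 gene that was not called.

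Of the member enzymes that reduce or split peroxides, CAT and GPX4 fell and GPX1 did not pass the test. Catalase (CAT), the peroxisomal enzyme that splits hydrogen peroxide, read 13.03, 13.01 and 12.87 in uninduced and 12.42, 12.64 and 12.55 in induced samples in probe set 201432_at (log2 intensity). In its second tested probe set, 211922_s_at, the values were 11.60, 11.43 and 11.35 against 10.78, 10.93 and 10.71. In both probe sets all induced arrays lay below all uninduced ones. The differences were -0.43 (SE 0.08; limma, adjusted p = 0.0033) and -0.65 (SE 0.09; adjusted p = 7.44e-04), or 1.35-fold and 1.57-fold lower. Its remaining probe set, 215573_at, was dim, at 3.37 to 3.54 on all arrays.

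GPX4, the selenoenzyme that reduces lipid peroxides in membranes and so protects from ferroptosis, read 13.34, 13.25 and 13.15 in uninduced and 12.82, 12.99 and 12.89 in induced samples (log2 intensity, probe set 201106_at). The groups did not overlap, and the fall of 0.35 (difference -0.35, SE 0.08; limma, adjusted p = 0.0067) is 1.28-fold. GPX1, the abundant cytosolic glutathione peroxidase, read 13.76, 13.66 and 13.59 against 13.52, 13.72 and 13.56 (probe set 200736_s_at). Its groups overlapped and it was not called, with a difference of -0.07 (95% interval -0.26 to 0.12; limma, adjusted p = 0.478).

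Glutamate-cysteine ligase makes the first and rate-limiting step of glutathione synthesis; transcript of its modifier subunit fell and that of its catalytic subunit did not pass the test. GCLM, the modifier subunit, read 11.87, 11.81 and 11.74 in uninduced and 11.35, 11.33 and 11.42 in induced samples in probe set 203925_at (log2 intensity). The fall of 0.44 there (difference -0.44, SE 0.06; limma, adjusted p = 8.15e-04) is 1.36-fold. In the other GCLM probe sets the groups did not overlap either, but the differences were smaller and missed the threshold: -0.24 in 236140_at (10.93, 10.95 and 10.77 against 10.69, 10.50 and 10.74; limma, adjusted p = 0.0504) and -0.19 in 234986_at (10.59, 10.71 and 10.56 against 10.52, 10.33 and 10.42; adjusted p = 0.064). In 7 and 5 of 15 alternative settings, quantile normalization and median centring among them, these 2 probe sets were called lower (adjusted p from 0.013 to 0.141 and from 0.016 to 0.191).

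GCLC, the catalytic subunit, read 10.08, 10.11 and 9.89 in uninduced and 10.09, 10.22 and 10.16 in induced samples in probe set 202923_s_at (log2 intensity). Both tested probe sets overlapped between groups and neither was called, with differences of 0.13 (95% interval -0.06 to 0.32; limma, adjusted p = 0.202) and 0.06 in 202922_at (95% interval -0.09 to 0.21; adjusted p = 0.424). Another, 1555330_at, was dim, at 2.24 to 2.28. TXNRD1, the cytosolic selenoenzyme that recycles thioredoxin with NADPH, read 11.73, 11.69 and 11.47 in uninduced and 11.06, 11.18 and 11.03 in induced samples (log2 intensity, probe set 201266_at). The groups did not overlap, and the difference of -0.54 (SE 0.09; limma, adjusted p = 0.0016) is a 1.45-fold fall, while its other probe set, 1561080_at, was dim at 2.39 to 2.45.

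NQO1, which reduces quinones with 2 electrons at once and so avoids the semiquinones that give rise to superoxide, was the one gene here whose probe sets were called higher. Its probe set 210519_s_at read 8.50, 8.34 and 8.12 in uninduced and 10.09, 10.23 and 10.11 in induced samples (log2 intensity). In 201468_s_at the values were 7.82, 7.81 and 8.06 against 9.59, 9.78 and 9.74, and in 201467_s_at, its dimmest, 5.46, 5.38 and 4.29 against 8.00, 7.57 and 7.46. All induced arrays lay above all uninduced ones in all 3 probe sets, by over 1 unit. The differences were 1.82 (SE 0.11; limma, adjusted p = 1.15e-05), 1.81 (SE 0.09; adjusted p = 6.89e-06) and 2.63 (SE 0.32; adjusted p = 3.50e-04), which are 3.54-fold, 3.50-fold and 6.20-fold. The first of these was exceeded in absolute size by 5.98% of measured genes. In the dimmest probe set the low value of uninduced replicate 3 takes part in the difference, and over the alternatives, which include leaving out each array, it ranged from 2.15 to 2.84. All 3 probe sets end in _s_at, which marks probes that can bind more than 1 transcript.

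HMOX1, the inducible haem oxygenase that breaks haem into biliverdin, iron and carbon monoxide, has 1 probe set, 203665_at. It read 2.03, 2.04 and 2.05 in uninduced and 2.68, 3.45 and 2.37 in induced samples (log2 intensity). The induced arrays were higher and more spread, but all 6 lay under the filter, so no fold is given; in a fit with no filter the difference was 0.80 (95% interval 0.09 to 1.50; limma, adjusted p = 0.132). Its constitutive relative HMOX2 fell 2.56-fold (from 10.30 ± 0.14 to 8.94 ± 0.06, SD, n = 3 each; limma, adjusted p = 1.71e-05) in its brighter tested probe set and 1.44-fold in the other.

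**Figure D2:**
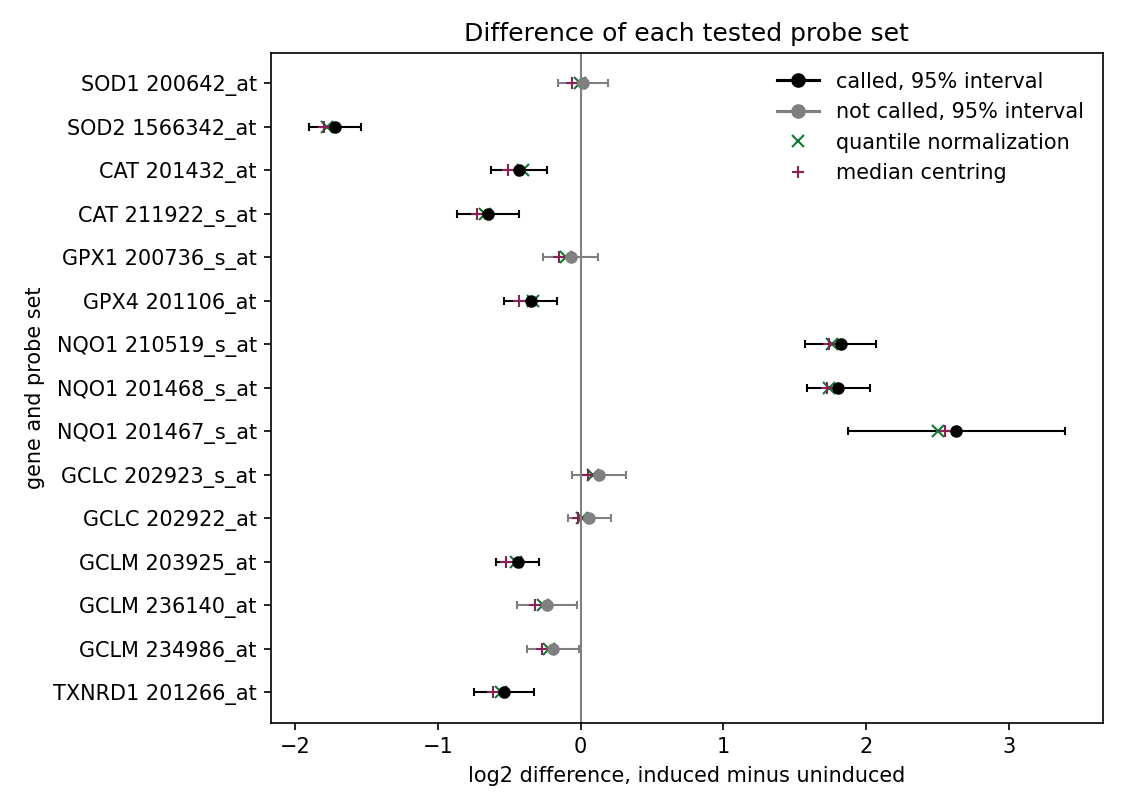
Log2 difference, induced minus uninduced (x axis), for each of the 15 tested probe sets of the antioxidant enzymes (y axis), as circles with 95% intervals (black where called, grey where not); crosses and plus signs give the difference after quantile normalization and median centring. The 3 NQO1 probe sets lie at 1.81 to 2.63 and SOD2 at -1.72, and the other 11 lie between -0.65 and 0.13.

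Differences between 2 members on the same array, from which any scaling of the array drops out, were compared for 5 pairs, in 4 of which both genes were above the filter. SOD2 minus SOD1 was -3.97, -3.88 and -3.92 on the log2 scale in uninduced and -5.55, -5.73 and -5.70 in induced samples, a shift of -1.74. GCLM minus GCLC went from 1.79, 1.70 and 1.86 to 1.26, 1.11 and 1.26, a shift of -0.57, or -0.39 with the mean over each gene's probe sets. GPX4 minus GPX1 was -0.42, -0.41 and -0.43 without and -0.70, -0.73 and -0.67 with induction, a shift of -0.28, and here the arrays of a group differed by less than for either gene alone. CAT minus GPX1 shifted by -0.36. In none of these 4 pairs did the groups overlap. The exact permutation test (two-sided) gave p = 0.1 for each, its lower limit with 3 arrays a group, and 0.1 adjusted over the 4. No shift is given for the remaining pair, HMOX1 minus NQO1, since HMOX1 was under the filter. These shifts show unequal change within a pair and not which of the 2 genes changed.

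**Figure D3:**
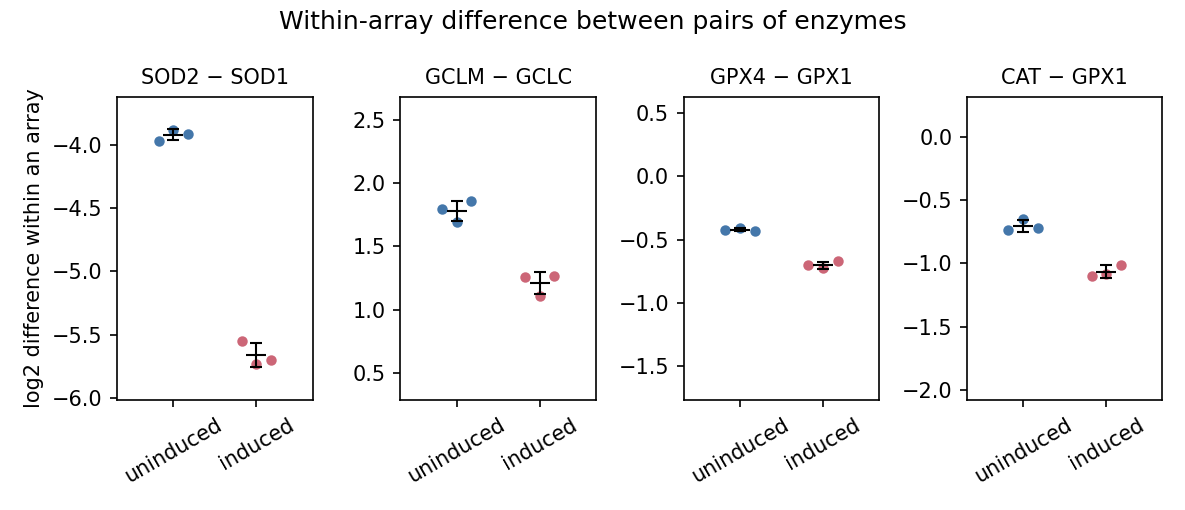
Log2 difference between 2 enzymes on the same array (y axis, each panel spanning 2.4 units) for 4 pairs, with points for the 3 uninduced (blue) and 3 induced (red) arrays and bars for mean and SD. In each panel the induced arrays lie below the uninduced ones, by 1.74 for SOD2 minus SOD1, 0.57 for GCLM minus GCLC, 0.28 for GPX4 minus GPX1 and 0.36 for CAT minus GPX1.

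Transcripts of NRF2 and of 2 proteins that act against it were described whatever their values: NFE2L2 and BACH1 rose and KEAP1 fell. NFE2L2, which encodes the activator NRF2, read 12.01, 11.99 and 11.88 in uninduced and 12.53, 12.58 and 12.58 in induced samples (log2 intensity, probe set 201146_at), a 1.52-fold rise (limma, adjusted p = 1.63e-04). KEAP1, which marks NRF2 for degradation, read 10.79, 10.82 and 10.62 against 10.03, 10.11 and 10.08, a 1.59-fold fall (adjusted p = 2.18e-04). BACH1, a repressor of the same element and a haem sensor, read 9.42, 9.33 and 9.29 against 9.66, 9.75 and 9.80, a 1.31-fold rise (adjusted p = 0.0023). In each of the 3 the groups did not overlap. These are transcript levels, and the activity of NRF2, which is set largely at the protein, was not measured. Of 12 measured genes of the list of NRF2 regulators and partners 6 rose, 2 fell and 4 were not called, with a median difference of 0.24; after quantile normalization 6 rose and 4 fell. NFE2L3, an NRF2 relative, was 3.47-fold lower, and the kinase GSK3B 1.76-fold higher, in 3 of its 4 tested probe sets, while the last was not called at -0.08. The 4 genes not called, named after their values were seen, were the NRF2 relative NFE2L1, the small MAF proteins MAFF and MAFG and the ubiquitin ligase subunit BTRC.

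The lists around the members are given by their counts, to be read against 35.8% higher and 30.7% lower of all measured genes, the latter 40.5% after quantile normalization. Apart from the 4 members on it, the list of glutathione synthesis and recycling had 10 measured genes, of which 8 fell, 2 were not called and 0 rose (limma; also 0 higher at an unadjusted p under 0.05), with a median of -0.85. The cystathionine lyase CTH, which makes cysteine, fell 5.76-fold (from 10.63 ± 0.11 to 8.10 ± 0.12, SD, n = 3 each) and 10.3-fold in its other tested probe set, and SLC7A11, the cystine importer, fell 1.88-fold (from 11.38 ± 0.10 to 10.48 ± 0.05). CHAC1 and GGCT, which act in glutathione breakdown, fell too, at least 3.03-fold and 1.87-fold. Of 14 measured NADPH-producing enzymes 10 fell and 1 rose, and their median was -0.51: the NAD kinase NADK was 2.12-fold, the malic enzyme ME2 1.61-fold and the folate enzymes ALDH1L2 and MTHFD1 2.34-fold and 1.77-fold lower.

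In the thioredoxin system, apart from TXNRD1, 3 of 10 measured genes rose, 5 fell and 2 were not called. The glutaredoxin GLRX rose 1.49-fold and the nucleoredoxin NXN 1.63-fold, while the glutaredoxins GLRX2 and GLRX3 fell 1.43-fold and 1.50-fold. Of 6 measured peroxiredoxin genes 2 rose, 1 fell and 3 were not called, and after quantile normalization 1 rose and 2 fell. PRDX6, which reduces phospholipid peroxides as GPX4 does, rose 2.97-fold (from 12.97 ± 0.15 to 14.54 ± 0.11, SD, n = 3 each; limma, adjusted p = 1.52e-05), in both of its tested probe sets, and PRDX4, of the endoplasmic reticulum, fell 1.34-fold. PRDX2 was called 1.23-fold higher, but its second probe set differed by -0.0022 and 9 of 15 alternatives lost the call.

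In the list of quinone and aldehyde reductases and related genes, 4 of the 9 measured genes other than NQO1 rose, 3 fell and 2 were not called, near the shares among all measured genes. The aldo-keto reductase AKR1C3 was at least 4.64-fold higher, from 2.51 ± 0.12 to 6.21 ± 0.19 (SD, n = 3 each; limma, adjusted p = 9.84e-07), although its close paralogs may share its probes, and the epoxide hydrolase EPHX1 was 4.60-fold higher. The exporter ABCC4 was 2.60-fold to 4.16-fold lower in its 3 tested probe sets. Of 11 measured glutathione transferases 3 rose and 5 fell: GSTA4, which conjugates the lipid peroxidation product 4-hydroxynonenal, rose 13.3-fold (from 5.27 ± 0.66 to 9.00 ± 0.05) and MGST3 1.91-fold, while MGST1 and MGST2 fell 2.19-fold and 2.13-fold. With _x_at and _s_at probe sets omitted, MGST1 was not called (-0.13; limma, adjusted p = 0.217). Of 8 measured genes of haem breakdown and iron storage, 1 rose (BLVRA, a biliverdin reductase, 1.20-fold, called in 2 of its 3 tested probe sets), 1 fell (HMOX2; 2 after quantile normalization) and 6 were not called.

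**Figure D4:**
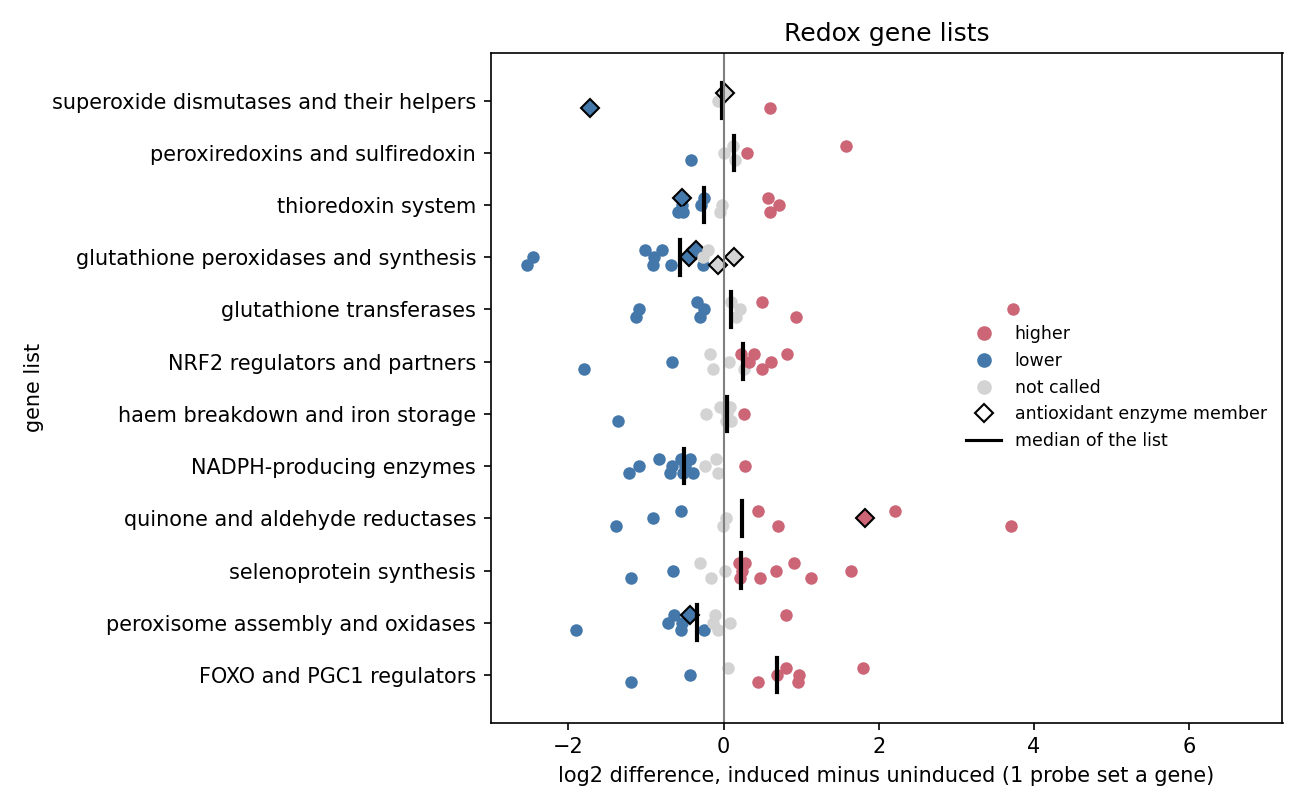
Log2 difference, induced minus uninduced (x axis), of each measured gene in 12 redox gene lists (y axis), red where called higher, blue where called lower and grey where not called; diamonds are the antioxidant enzymes and black bars the median of a list. The glutathione list has its 10 called genes left of 0 and a median of -0.56, and NQO1 lies at the right among the reductases, at 1.82.

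Over all 12 lists, and leaving out the 10 members, 116 genes were measured, of which 37 were higher, 45 lower and 34 not called, with a median difference of -0.07. The share of calls was thus close to that among all 9836 genes.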

How the data were processed

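The deposited intensities, 1 per probe set and array on a linear scale from 0.914 to 122290, were made by the authors with GCRMA, per the submitters' processing notes. Its version is not given in the sources used here, nor whether values were rescaled afterwards. Dim probe sets come out of GCRMA near a shared low value, which compresses differences near the filter. The log2 was taken after raising 6 values under 1 to 1. Of 54675 probe sets 62 controls were left out; platform annotation gave 1 symbol to 41091 of the rest, several to 1801 (not named) and none to 11721. Samples were grouped by title. The group difference was tested, two-sided and with no covariates, by lmFit and eBayes of limma 3.58.1 (R 4.3.3), and p-values were adjusted after Benjamini and Hochberg over 20552 probe sets. Folds are 2 to the power of the difference. Where 1 group lay wholly under the filter, the fold is the brighter mean against a log2 value of 4, given as "at least". The number of arrays limits the precision.

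The members, 12 pathway lists and 5 marker lists were chosen with earlier results of these data known. Named by rule are all probe sets of the members, NFE2L2, KEAP1 and BACH1, and genes among the 4 of smallest adjusted p in each list. NFE2L1, MAFF, MAFG, BTRC and further genes of the selenoprotein list were named after their values were seen. They are not among the 42 other named genes followed over the alternatives below. Data were also simulated with 200 of 20552 probe sets changed. On the log2 scale the fit recovered 40% of changes of 0.5, 82% of 1, 96% of 2 and 100% of 4. Of 165 calls 6 were wrong. In the measured data a far larger share was called (62.5%), and the adjustment of p depends on that share. The simulated rates therefore do not carry over to this comparison. Figures used matplotlib 3.10.9 in Python 3.11.15.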

Additional observations from a re-analysis of the deposited data

How the results depend on the processing

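Tried were dropping the filter or raising it to 6, quantile normalization, median centring, log2(intensity + 16), array weights, eBayes with trend and robust, a replicate block, omission of _x_at and _s_at probe sets, gene means over probe sets, and omission of each of the 6 arrays. The 9 measured enzymes kept their call or lack of one under every alternative in which they could be tested. Without _x_at and _s_at probe sets NQO1 had none left, so 0 member probe sets were called higher, and 7537 of 11968 probe sets were called in all. Elsewhere 3 member probe sets were called higher and 6 to 8 lower. Over all probe sets, calls split into 7112 higher and 5733 lower, but quantile normalization gave 6759 and 8077, and median centring 6579 and 7106. Of the 42 other named genes, over 618 alternative results, 607 kept the call and its direction, 10 lost the call (9 for PRDX2, 1 for MGST1) and 1 was called the opposite way. The last was TRNAU1AP at -0.96 without _x_at and _s_at probe sets, where PRDX2, not called, was at -0.0022. All of these named genes but BACH1 had been picked for a small adjusted p on the same arrays. Most calls were therefore likely to be kept, and the count is no independent support for them. Same-numbered arrays deviated together at r = -0.17, 0.00046 and 0.18. With 3 arrays a group these values cannot decide whether the numbers pair the samples. With the replicate block 12809 probe sets were called, against 12845, and of the member probe sets 3 were higher and 6 lower. The 4 dim member probe sets, that of HMOX1 among them, could be measured only under the filter, so a fall in them could not be seen.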

Other observations

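Further lists are given by their counts, beside 35.8% higher and 30.7% lower of all 9836 measured genes. The list of selenoprotein synthesis also holds selenoproteins, and of its 14 measured genes 9 rose, 2 fell and 3 were not called in limma. The median log2 difference was 0.22, and after median centring 6 rose and 4 fell. SELENOT, SELENOP, SELENOS, SELENOW, SELENOF and SELENOK, which are selenoproteins, were all called higher. The other genes include the machinery that GPX1, GPX4 and TXNRD1 need, and their directions were mixed. Among them SECISBP2, SEPSECS and TRNAU1AP rose, PSTK and SCLY fell, and SEPHS1, SEPHS2 and EEFSEC were not called. The selenium carrier SELENOP rose 3.13-fold, from 10.23 ± 0.03 to 11.87 ± 0.05 (SD, n = 3 each), and SECISBP2, which binds the selenocysteine insertion element, rose 1.60-fold in 1 of its 2 tested probe sets, while SCLY, which recovers selenium from selenocysteine, fell 2.29-fold. TRNAU1AP was 2.17-fold higher in the probe set that represents it, and of its 3 tested probe sets 2 rose and 1 fell. Beside CAT, 11 genes of peroxisome assembly and peroxisomal oxidases were measured, of which 1 rose, 6 fell and 4 were not called. The import receptor PEX5 fell 3.75-fold, from 9.42 ± 0.11 to 7.51 ± 0.04, in its brighter tested probe set and 1.39-fold in the other, and PEX3 and PEX26 fell 1.56-fold and 1.47-fold, while PEX7 rose 1.75-fold.

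Regulators of antioxidant genes other than NRF2 formed a list of their own. Of 9 measured FOXO, PGC1, sirtuin and sestrin genes 6 rose, 2 fell and 1 was not called, with a median of 0.69. FOXO3, a transcription factor for which SOD2 and CAT are known targets, rose 1.94-fold, in 4 of its 4 tested probe sets, while SOD2 and CAT fell. The activity of FOXO3 was not measured, and a link between these changes was not tested. The deacetylase SIRT1 rose 1.97-fold and the sestrin SESN1 3.47-fold, and the coactivator PPARGC1B fell 2.29-fold.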
